A study of Mus musculus with 9 samples.

Results

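Collagen genes were taken as every mouse gene whose symbol has the form Col, a number, a and a number, except Col17a1, which gave 43 of the 47069 genes counted. RNA was sequenced from 3 distal metastases, 3 proximal metastases and 3 primary prostate tumours. Every library carries the same genotype label, which includes Ctnnb1pc(ex3)delta/+, on the C57BL/6 strain, and came from mice of about 9 to 10 months. That allele name describes a Ctnnb1 gene that can lose exon 3 on 1 copy, which stabilises beta-catenin. The promoter that drives recombination is not spelled out in the labels. Proximal metastases were labelled as epididymal fat. Distal metastases carry diaphragm in the tissue label and lung in the growth notes, so they are called distal here. The set holds no normal prostate and no tumour of another genotype, and all comparisons are between tumour sites.

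Collagens are secreted or membrane-bound proteins in which 3 chains wind into a triple helix. Fibrillar collagens give connective tissue its tensile strength, type IV collagens build the sheet of every basement membrane, and the multiplexins, FACIT collagens and type VI collagens join those structures to each other and to cells. Fibroblasts make most fibrillar collagen, whereas epithelial and endothelial cells make much of the basement membrane they rest on, so bulk tumour RNA mixes both sources. In such bulk RNA, fewer cells of a type and less RNA per cell cannot be told apart.

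Total counts per library lay between 28334730 and 40408723, and collagen genes took 0.416 to 0.503% of the counts in distal, 0.402 to 0.595% in proximal and 0.240 to 0.611% in primary libraries. Values below are CPM, the counts of a gene divided by the size of its library, after library sizes were scaled by TMM, which sets most genes level between libraries. The 3 primary libraries stood further apart than the metastases did. Primary 1 lay inside the range of the 6 metastases for 70.8% of all tested genes, against 20.7% for primary 2 and 29.5% for primary 3. The summed CPM of 8 epithelial markers was 2464, 2611 and 2585 in distal, 2395, 1916 and 2777 in proximal and 2806, 15375 and 6728 in primary libraries 1 to 3. Seminal vesicle markers summed to 10566 CPM in primary 3 and to at most 30.6 CPM in each other library. Results that rest on the primary group are therefore given with and without single primary libraries. The labels call the samples matched but do not say which came from the same mouse, so no animal term was fitted. The p-values treat the 9 samples as independent and take no account of samples that share a mouse.

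Summed over all 43 genes, collagen transcripts were no higher or lower at the metastatic sites than the primary tumours spanned. The sum was 4684, 4840 and 4036 CPM in distal libraries 1 to 3, 4587, 5734 and 3947 CPM in proximal libraries and 5830, 3018 and 3004 CPM in primary libraries. Primary 1 was the highest of all 9 libraries, while primary 2 and primary 3 were the lowest. Fibrillar genes gave 1901, 2173 and 1726 CPM in distal, 1777, 2634 and 1192 CPM in proximal and 2810, 1121 and 1412 CPM in primary libraries. Type IV genes, with 973 to 1086 CPM in distal, 992 to 1257 CPM in proximal and 607 to 1211 CPM in primary libraries, came next. The transmembrane collagens came after these by group mean and rested almost wholly on Col23a1. Single libraries departed from this order. Type IV was above fibrillar in primary 2, at 1167 against 1121 CPM, and transmembrane above type IV in proximal 1, at 1132 against 992 CPM. In primary 2 and primary 3 the transmembrane sums, 162 and 137 CPM, were below those of the multiplexins, 239 and 313 CPM.

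**Figure D1:**
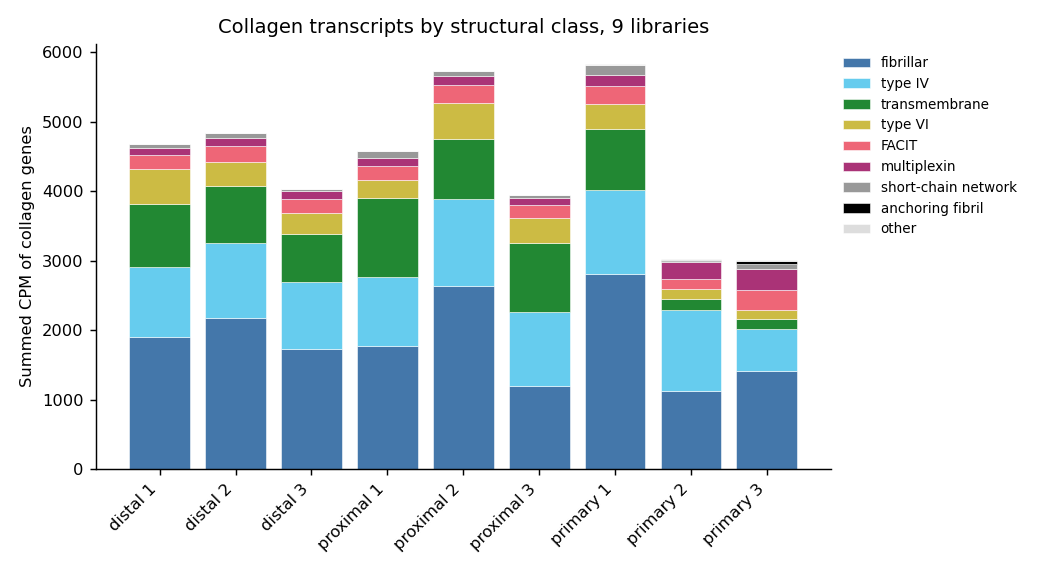
Summed CPM of collagen genes by structural class in each of the 9 libraries, with distal libraries on the left, proximal in the middle and primary on the right. Primary 2 and primary 3 hold the smallest transmembrane sums, 162 and 137 CPM, whereas primary 1, at 874 CPM, lies among the metastases.

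Of the 43 genes, 40 had enough counts to test. Col2a1, Col19a1 and Col25a1 were left out, each with fewer than 70 counts over all libraries. In edgeR's quasi-likelihood test with Benjamini-Hochberg adjustment over 18204 genes, no collagen gene reached an adjusted p of 0.05 in distal against primary tumours, where 0.0879% of all tested genes did. None did in proximal against primary tumours, where the share of all genes was 0.0494%, and none in distal against proximal metastases, where it was 0%. At an unadjusted p below 0.05 the collagen counts were 6 in distal against primary (17.4% of all genes), 5 in proximal against primary (18.2%) and 1 in distal against proximal (2.06%). With both metastatic sites averaged and set against primary tumours, 1 collagen gene was called, Col15a1, which was lower. That is 1 of 40 collagen genes, beside 3.71% of all genes called in either direction and 3.68% called lower, and 8 collagen genes had an unadjusted p below 0.05, beside 24.6% of all genes. The median log2 fold change of the 40 genes in that comparison was -0.15, against -0.04 over all tested genes, with 18 positive and 22 negative values. That median was 0.039 with limma-voom, 0.056 with quality weights and 0.0038 without primary 3. DESeq2 called 5 collagen genes, Col15a1, Col18a1, Col7a1, Col9a3 and Col6a4, all lower, where it called 14.2% of all genes and 11.6% lower. By site DESeq2 called 3 collagen genes in distal against primary (7.93% of all genes), 4 in proximal against primary (8.16%) and 0 in distal against proximal (0.467%). The metastatic comparisons share the same primary libraries. The comparison of both sites counts distal and proximal metastases as separate samples, although some may come from the same mouse.

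**Figure D2:**
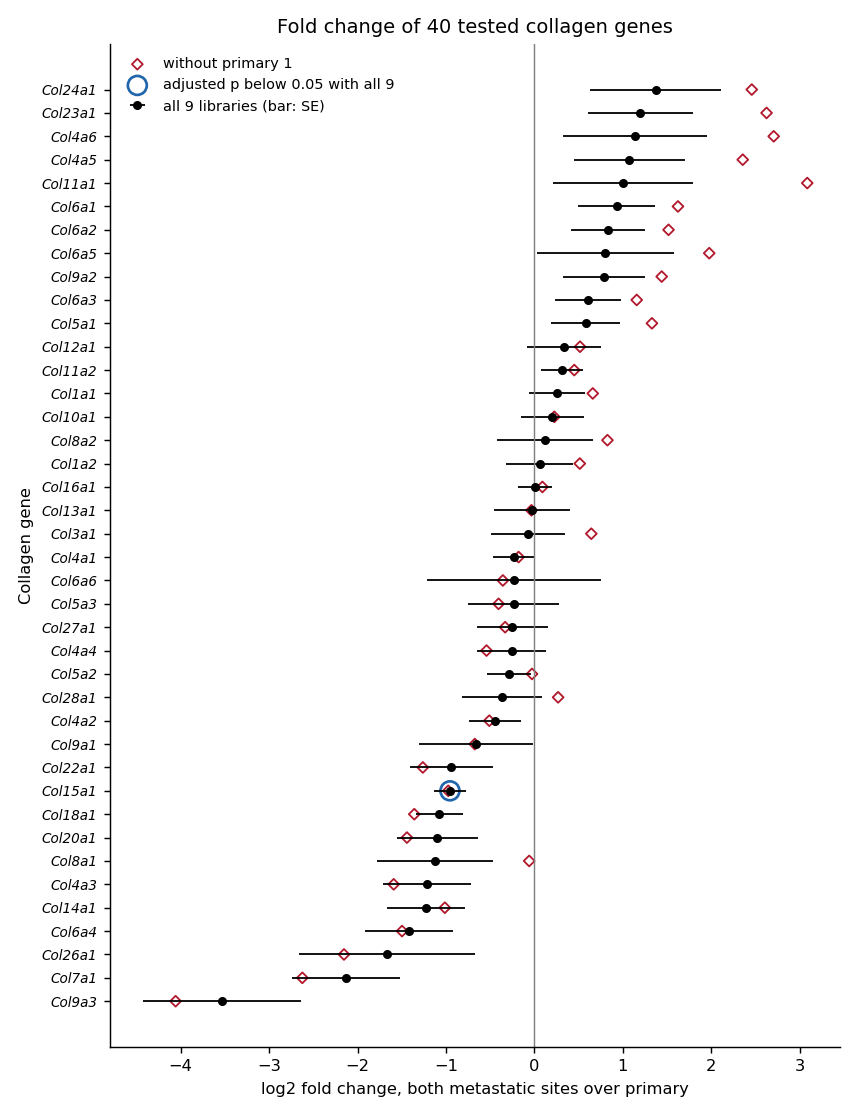
Log2 fold changes of the 40 tested collagen genes for both metastatic sites averaged against primary tumours, ordered by fold change, with bars of 1 standard error from the edgeR fit. Open diamonds give the fold changes without primary 1. Col15a1, at -0.95, is the called gene, and Col26a1 and Col9a3 are among those with the widest bars, at 0.99 and 0.89.

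The multiplexins Col15a1 and Col18a1 are basement membrane collagens that carry heparan or chondroitin sulfate chains, and the C-terminal end of Col18a1 is released as endostatin, a fragment known for limiting vessel growth. Both were lower in all 6 metastases than in all 3 primary tumours, and they were the 2 of 40 collagen genes with that pattern, beside 5.99% of all tested genes. No collagen gene lay higher in every metastasis than in every primary tumour, beside 4.22% of all genes. Col4a6 and Col11a2 were higher in every proximal library than in every primary tumour, beside 8.68% of all genes, and no collagen gene was so in the distal libraries, beside 8.4%. Col15a1 (ENSMUSG00000028339, chromosome 4, 47208161 to 47313167, plus strand, GRCm38) had 25.5, 36.8 and 34.8 CPM in distal, 34.9, 53.1 and 37.6 CPM in proximal and 67.3, 80.2 and 66.5 CPM in primary libraries. The 3 primary tumours were close to each other, and the highest metastasis, proximal 2, stayed below the lowest of them. Group means were 32.4 ± 6.0 CPM in distal, 41.9 ± 9.8 CPM in proximal and 71.4 ± 7.7 CPM in primary tumours (SD, n = 3 each). The log2 fold change of both sites against primary was -0.95 (SE 0.18, edgeR adjusted p = 0.0313). By site it was -1.140 (SE 0.21, edgeR adjusted p = 0.105) in distal and -0.77 (SE 0.21, edgeR adjusted p = 0.164) in proximal metastases. With 1 library left out, the Col15a1 call held without primary 1 or proximal 2 and was lost without any of the other 7, although the fold change stayed between -1.04 and -0.86. It was also lost with library totals (edgeR adjusted p = 0.0539) and with limma-voom (adjusted p = 0.0820). The log2 fold change was -0.97 (edgeR adjusted p = 0.0107) without primary 1, -0.86 (0.0844) without primary 2 and -0.999 (0.105) without primary 3. The promoter window of Col15a1, from 250 bases before to 50 after the RefSeq start, is shown because this was the gene called; it lies at chr4:47207762-47208061 on the plus strand of GRCm38.p6, with capitals marking its only match to the motifs described below, a TCF/LEF core on the opposite strand.
Col15a1: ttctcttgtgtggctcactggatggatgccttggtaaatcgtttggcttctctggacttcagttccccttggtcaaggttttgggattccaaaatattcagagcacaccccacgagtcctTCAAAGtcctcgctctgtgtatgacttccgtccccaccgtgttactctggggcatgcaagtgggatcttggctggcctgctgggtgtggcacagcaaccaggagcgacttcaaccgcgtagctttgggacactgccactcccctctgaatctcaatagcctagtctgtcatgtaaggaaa

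Col18a1 (ENSMUSG00000001435, chromosome 10, 77052178 to 77166548, minus strand) had 81.9, 81.5 and 75.5 CPM in distal, 77.7, 82.3 and 69.7 CPM in proximal and 88.0, 159 and 247 CPM in primary libraries. The 6 metastases kept within a narrow band and primary 1 lay just above it, so the size of the difference came from primary 2 and primary 3. The log2 fold change was -1.08 (SE 0.27, edgeR adjusted p = 0.0661) for both sites against primary tumours. It was -1.36 (edgeR adjusted p = 0.00144) without primary 1, -1.10 (0.146) without primary 2 and -0.66 (0.214) without primary 3. Group means of Col18a1 were 79.6 ± 3.6 CPM in distal, 76.6 ± 6.4 CPM in proximal and 165 ± 79 CPM in primary tumours (SD, n = 3 each). The epithelial marker sum was also highest in primary 2 and primary 3, at 15375 and 6728 CPM, and its part in the Col18a1 difference was not tested.

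**Figure D3:**
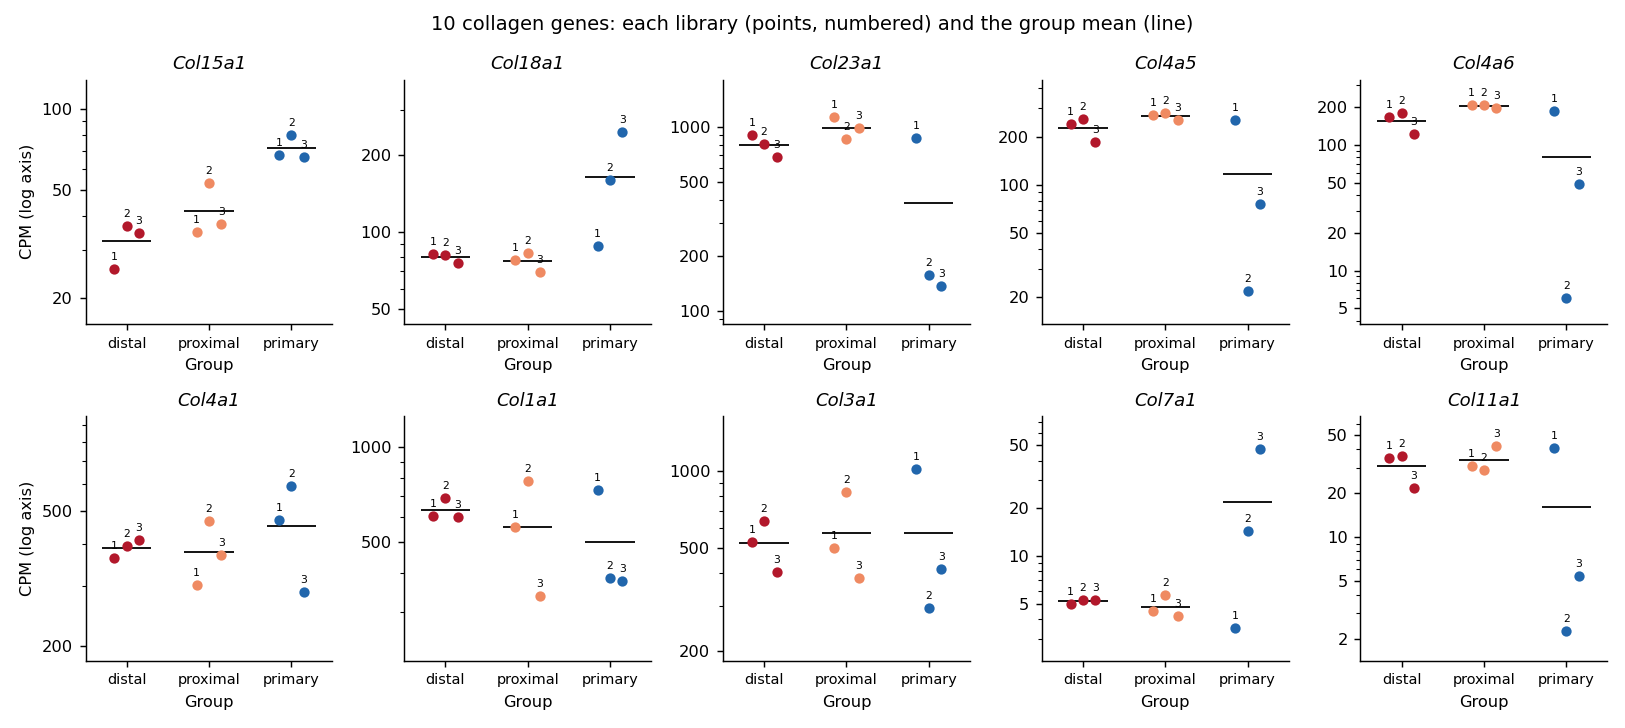
CPM of selected collagen genes in each library on a log axis, with distal points on the left, proximal in the middle and primary on the right, and a bar for each group mean. Col15a1 and Col18a1 are the panels in which all 3 primary points, from 66.5 CPM for Col15a1 and from 88.0 CPM for Col18a1, stand above all 6 metastasis points.

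The type IV family forms 3 networks from 6 chains, encoded by head-to-head gene pairs: Col4a1 with Col4a2 in all basement membranes, Col4a3 with Col4a4 in kidney and lung, and Col4a5 with Col4a6 in skin, smooth muscle and several glands. The transcribed regions of Col4a1 and Col4a2 overlap by 22 bases on chromosome 8 in the GENCODE annotation, and the starts of Col4a3 and Col4a4 have 71 bases between them. The starts of Col4a6 and Col4a5 have 1308 bases between them on the X chromosome. Promoter windows of both abundant pairs are printed to set the pair with a shared promoter beside the pair whose starts lie apart. They run 5′ to 3′ on each gene's own strand in RefSeq's GRCm38.p6, at chr8:11312777-11313076 (minus) for Col4a1, chr8:11312555-11312854 (plus) for Col4a2, chrX:141475169-141475468 (plus) for Col4a5 and chrX:141474027-141474326 (minus) for Col4a6. Capitals mark CCAAT boxes and GC boxes on either strand.
Col4a1: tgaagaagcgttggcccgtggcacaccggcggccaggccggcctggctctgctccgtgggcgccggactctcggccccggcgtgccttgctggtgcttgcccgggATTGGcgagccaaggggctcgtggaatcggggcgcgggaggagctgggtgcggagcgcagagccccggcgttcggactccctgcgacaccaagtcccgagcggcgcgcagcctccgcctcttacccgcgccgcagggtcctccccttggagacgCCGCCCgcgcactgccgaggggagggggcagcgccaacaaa
Col4a2: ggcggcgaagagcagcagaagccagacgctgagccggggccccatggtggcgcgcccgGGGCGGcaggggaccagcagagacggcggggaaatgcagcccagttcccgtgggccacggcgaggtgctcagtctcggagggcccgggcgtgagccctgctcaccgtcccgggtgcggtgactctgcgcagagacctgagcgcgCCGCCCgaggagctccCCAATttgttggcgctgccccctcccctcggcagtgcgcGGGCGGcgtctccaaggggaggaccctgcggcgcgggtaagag
Col4a5: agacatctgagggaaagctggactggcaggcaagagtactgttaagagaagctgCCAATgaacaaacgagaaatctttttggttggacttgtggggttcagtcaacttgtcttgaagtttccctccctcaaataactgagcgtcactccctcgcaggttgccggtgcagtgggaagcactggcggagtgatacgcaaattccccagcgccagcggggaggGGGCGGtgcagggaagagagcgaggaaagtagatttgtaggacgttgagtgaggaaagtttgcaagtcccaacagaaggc
Col4a6: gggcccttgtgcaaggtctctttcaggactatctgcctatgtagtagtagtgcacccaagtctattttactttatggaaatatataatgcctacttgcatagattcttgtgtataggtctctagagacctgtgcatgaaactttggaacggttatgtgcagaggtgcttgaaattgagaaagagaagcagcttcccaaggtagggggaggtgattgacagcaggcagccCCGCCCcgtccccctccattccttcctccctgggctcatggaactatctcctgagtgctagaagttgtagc

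The windows of Col4a1 and Col4a2 overlap by 78 bases. Motifs were searched on both strands as TATAAA for a TATA box, CCAAT for a CCAAT box, GGGCGG for a GC box and CTTTGA for a TCF/LEF core, and none of these contains another. RefSeq windows were found for 34 of the 43 collagen genes, which gave 37 windows. A GC box was in 62.2% of them, against 35.7% of the 32851 windows of all genes, and a TCF/LEF core was in 24.3%, against 16.0%. CCAAT was in 32.4% of collagen windows, against 37.4%, and TATAAA in 10.8%, against 13.6%. The Col4a1 window holds 1 CCAAT box and 1 GC box, the Col4a2 window 1 CCAAT box and 3 GC boxes, the Col4a5 window 1 of each, and the Col4a6 window 1 GC box. These matches are letters in a window and say nothing of binding.

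Col4a5 and Col4a6 differed between the primary tumours far more than Col4a1 and Col4a2 did. Col4a5 (chromosome X, 141475385 to 141689234) had 239, 256 and 186 CPM in distal, 273, 282 and 253 CPM in proximal and 255, 21.9 and 75.8 CPM in primary libraries. Col4a6 (chromosome X, 141165403 to 141474076) had 166, 179 and 122 CPM in distal, 206, 207 and 199 CPM in proximal and 188, 6.01 and 49.1 CPM in primary libraries. For both genes primary 1 lay among the metastases, and primary 2 was the lowest of the 9 libraries, with primary 3 next. With all libraries edgeR called neither, whereas limma-voom with sample quality weights called both, and Col23a1 too. They were among 8 of 40 collagen genes called, beside 3813 of all 18204 tested genes. That fit gave primary 1 to 3 weights of 0.175, 0.0843 and 1.06, so its primary group rested mostly on primary 3. The metastases had weights of 1.45 to 2.92. In edgeR the log2 fold change for both sites against primary was 1.07 (SE 0.63, edgeR adjusted p = 0.291) for Col4a5. For Col4a6 it was 1.137 (SE 0.81, edgeR adjusted p = 0.362). Without primary 1 the values were 2.36 (edgeR adjusted p = 0.00919) for Col4a5 and 2.71 (0.0277) for Col4a6, both called higher at the metastatic sites. Without primary 2 they were 0.59 (edgeR adjusted p = 0.41) for Col4a5 and 0.59 (0.442) for Col4a6, and without primary 3 they were 0.84 (0.505) and 0.88 (0.581).

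Col4a1 and Col4a2, the type IV chains with the highest mean CPM over the 9 libraries, were not called in any edgeR comparison. Col4a1 had 363, 393 and 411 CPM in distal, 301, 466 and 370.3 CPM in proximal and 470.5, 594 and 289 CPM in primary libraries. Col4a2 had 243, 254 and 252 CPM in distal, 209, 298 and 246 CPM in proximal and 296, 538 and 187 CPM in primary libraries. Here primary 2, the lowest library for Col4a5, was the highest, and the primary range enclosed every metastasis for both genes. The log2 fold changes were -0.23 (SE 0.24, edgeR adjusted p = 0.51) for Col4a1 and -0.44 (SE 0.29, 0.336) for Col4a2. The kidney-type chains were scarce: Col4a3 had 0.525 to 1.57 CPM in distal, 0.757 to 1.37 CPM in proximal and 0.886, 3.75 and 2.68 CPM in primary libraries. Col4a4 had 1.55 to 3.29 CPM in distal, 1.49 to 2.72 CPM in proximal and 1.48 to 3.55 CPM in primary libraries. Their log2 fold changes were -1.21 (SE 0.50, edgeR adjusted p = 0.189) for Col4a3 and -0.26 (SE 0.39, 0.661) for Col4a4.

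Partner chains differed in how steady their proportions were. The ratio of Col4a5 to Col4a6 CPM was 1.44, 1.43 and 1.52 in distal, 1.32, 1.36 and 1.27 in proximal and 1.36, 3.64 and 1.54 in primary libraries. Primary 2, where Col4a6 was at 6.01 CPM, stood apart from the other 8 libraries. Col4a1 over Col4a2 lay between 1.49 and 1.63 in distal and between 1.44 and 1.56 in proximal libraries, and was 1.59, 1.11 and 1.55 in primary libraries. Col6a1 over Col6a2 lay between 1.20 and 1.44 in all 9. Over the 9 libraries Col1a1 over Col1a2 lay between 0.86 and 1.63 and Col8a1 over Col8a2 between 0.43 and 2.0. Col4a3 over Col4a4, both scarce, was 0.34 to 0.48 in distal and 0.47 to 0.51 in proximal libraries. It was 0.60, 1.05 and 0.81 in primary libraries, which all lay higher. Across networks the ratio was not steady: Col4a5 over Col4a1 was 0.66, 0.65 and 0.45 in distal, 0.91, 0.60 and 0.68 in proximal and 0.54, 0.037 and 0.26 in primary libraries. The ratio of Col5a1 to Col5a2, chains of 1 fibrillar trimer, was 1.18 to 1.32 in distal and 1.02 to 1.16 in proximal libraries, and 0.87, 0.48 and 0.44 in primary libraries, which all lay lower. These ratios compare CPM without length correction, and are read between libraries only.

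**Figure D4:**
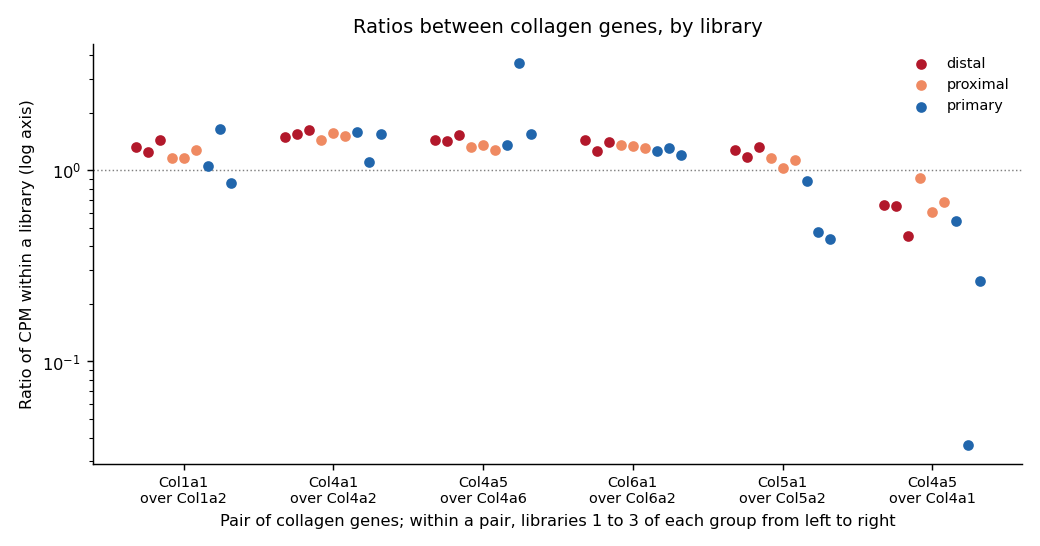
Ratios of CPM between pairs of collagen chains in each library, distal on the left, proximal in the middle and primary on the right, on a log axis. Col6a1 over Col6a2 stays between 1.20 and 1.44 in all 9 libraries, whereas Col4a5 over Col4a1 drops to 0.037 in primary 2.

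Col23a1, which encodes a membrane-anchored collagen that can be shed from the cell surface, had the highest mean level per length over the 9 libraries. That mean over the 9 libraries was 127 CPM per kilobase of merged exons, ahead of Col1a1 at 85.9, Col3a1 at 56.8 and Col4a1 at 54.5. With the longest transcript as length it was again the highest, at 128 CPM per kilobase. In the primary group alone it was at 67.7 CPM per kilobase of merged exons, below Col1a1 at 76.1. Col23a1 (ENSMUSG00000063564, chromosome 11, 51289920 to 51583918, plus strand) had 903, 811 and 684 CPM in distal, 1129, 862 and 987 CPM in proximal and 871, 157 and 136 CPM in primary libraries. Primary 1 lay within the metastases, and primary 2 and primary 3 were below every other library. The log2 fold change for both sites against primary was 1.20 (SE 0.59, edgeR adjusted p = 0.238). It was 2.62 (edgeR adjusted p = 0.000293) without primary 1, but 0.83 (0.427) without primary 2 and 0.79 (0.437) without primary 3. By site it was 1.04 (SE 0.66, edgeR adjusted p = 0.385) in distal and 1.35 (SE 0.66, 0.298) in proximal metastases. Its promoter window, printed because Col23a1 had the highest mean per length, lies at chr11:51289670-51289969 on the plus strand of GRCm38.p6, with 1 GC box in capitals.
Col23a1: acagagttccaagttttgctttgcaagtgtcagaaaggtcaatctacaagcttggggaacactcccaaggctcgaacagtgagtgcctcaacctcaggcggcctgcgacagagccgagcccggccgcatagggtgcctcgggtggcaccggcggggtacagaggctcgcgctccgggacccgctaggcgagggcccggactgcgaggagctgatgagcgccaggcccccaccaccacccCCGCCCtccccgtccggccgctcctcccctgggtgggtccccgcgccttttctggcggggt

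The other transmembrane genes were low. Col13a1, found at cell adhesion sites and at the neuromuscular junction, had 3.78, 3.03 and 3.70 CPM in distal, 2.19, 2.32 and 1.54 CPM in proximal and 2.58, 4.53 and 1.02 CPM in primary libraries. Its log2 fold change for both sites against primary was -0.025 (SE 0.43, edgeR adjusted p = 0.972). Col25a1, known from amyloid plaques and motor neuron development, was not tested and did not exceed 0.767 CPM in any library.

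The interstitial fibrillar genes did not separate the sites. Col1a1, which with Col1a2 forms type I collagen, had 605, 689 and 599.6 CPM in distal, 560.4, 784 and 337 CPM in proximal and 735, 386 and 377 CPM in primary libraries. Col1a2 had 458, 556 and 418 CPM in distal, 482, 677 and 262 CPM in proximal and 695, 236 and 439 CPM in primary libraries. Col3a1, the type III chain of distensible tissues, had 531, 641 and 404 CPM in distal, 500.1, 829 and 385 CPM in proximal and 1016, 293 and 418 CPM in primary libraries. In each of these genes the 3 groups overlapped, and proximal libraries differed among themselves as the primary libraries did. The log2 fold changes were 0.25 (SE 0.31, edgeR adjusted p = 0.593) for Col1a1, 0.058 (SE 0.38, 0.924) for Col1a2 and -0.072 (SE 0.42, 0.914) for Col3a1. Fibroblast markers other than collagens summed to 657, 721 and 745 CPM in distal, 615, 1055 and 705 CPM in proximal and 1157, 274 and 972 CPM in primary libraries, with 0 of 12 called. For both sites against primary, 2 of the 12 had a positive log2 fold change, and the median was -0.69, against -0.04 over all tested genes. Gsn, the most abundant of them at a mean of 375 CPM, weighed most in the sum and was among the positive ones, at 0.77. Primary 1 was the highest and primary 2 the lowest library in this sum, as for Col1a2 and Col3a1. For Col1a1 the highest was proximal 2 and the lowest proximal 3. The part of fibroblast content in the levels of these genes was not tested.

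Col11a1, a minor chain that sets fibril diameter in cartilage and is often found in tumour stroma, followed another order. It had 35.0, 35.8 and 21.6 CPM in distal, 30.8, 29.0 and 42.1 CPM in proximal and 40.7, 2.26 and 5.43 CPM in primary libraries. Primary 2 and primary 3 were the 2 lowest, as for Col23a1, Col4a5 and Col4a6. The log2 fold change was 1.001 (SE 0.79, edgeR adjusted p = 0.405), and 3.08 (edgeR adjusted p = 0.00259) without primary 1. It was 0.49 (0.65) without primary 2 and 0.59 (0.67) without primary 3. Col2a1, the main cartilage collagen, was at 0.05 to 0.0953 CPM in distal, 0.049 to 0.102 CPM in proximal and 0.0806, 0.390 and 0.475 CPM in primary libraries, too low to test with all 9 libraries. Col5a1, which starts type I fibrils and was named after its values were seen, had 119 to 138 CPM in distal, 74.9 to 141 CPM in proximal and 137, 45.1 and 47.5 CPM in primary libraries. Its log2 fold change was 0.58 (SE 0.39, edgeR adjusted p = 0.339), 1.33 (0.00685) without primary 1, 0.32 (0.637) without primary 2 and 0.33 (0.626) without primary 3. Col24a1, also named after its values were seen, reached 6.05 CPM in proximal 2 and was at 0.272 to 1.91 CPM elsewhere.

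Type VI collagen forms beaded microfilaments around cells. Col6a1 had 274, 158 and 144 CPM in distal, 123, 258 and 180.3 CPM in proximal and 174, 65.95 and 58.9 CPM in primary libraries. Col6a2 had 191, 126 and 103 CPM in distal, 91.0, 192 and 138 CPM in proximal and 137, 50.4 and 49.1 CPM in primary libraries. For both chains primary 1 lay inside the metastasis range and the other primary tumours lay below it. The log2 fold changes were 0.93 (SE 0.43, edgeR adjusted p = 0.221) for Col6a1 and 0.83 (SE 0.42, 0.243) for Col6a2. Without primary 1 they were 1.62 (edgeR adjusted p = 0.0148) for Col6a1 and 1.52 (0.0154) for Col6a2. Without primary 2 they were 0.709 (edgeR adjusted p = 0.408) and 0.596 (0.454), and without primary 3 they were 0.664 (0.433) and 0.585 (0.464). Col6a3, the remaining chain of the classical trimer, named after its values were seen, had 35.9 to 65.5 CPM in distal, 40.9 to 63.2 CPM in proximal and 52.3, 29.2 and 15.8 CPM in primary libraries. Col6a4, a chain that can replace Col6a3, had 0.825 to 1.10 CPM in distal, 1.10 to 1.53 CPM in proximal and 2.58, 0.820 and 5.5 CPM in primary libraries.

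Col7a1 encodes the anchoring fibril that ties epithelial basement membrane to the stroma below. It had 4.98, 5.24 and 5.30 CPM in distal, 4.49, 5.64 and 4.16 CPM in proximal and 3.49, 14.4 and 47.5 CPM in primary libraries. Primary 1 was the lowest of the 9 libraries and the other 2 primary tumours were the highest. The log2 fold change was -2.13 (SE 0.61, edgeR adjusted p = 0.0951). It was -2.62 (edgeR adjusted p = 0.00249) without primary 1, -2.37 (0.152) without primary 2 and -0.84 (0.371) without primary 3. Of 8 epithelial markers, 0 had a positive log2 fold change for both sites against primary, and the median was -1.77. The 3 that were called lower, Krt5, Krt14 and Krt19, are keratins of basal or ductal epithelium. The part of epithelial content in the Col7a1 difference was not tested.

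**Figure D5:**
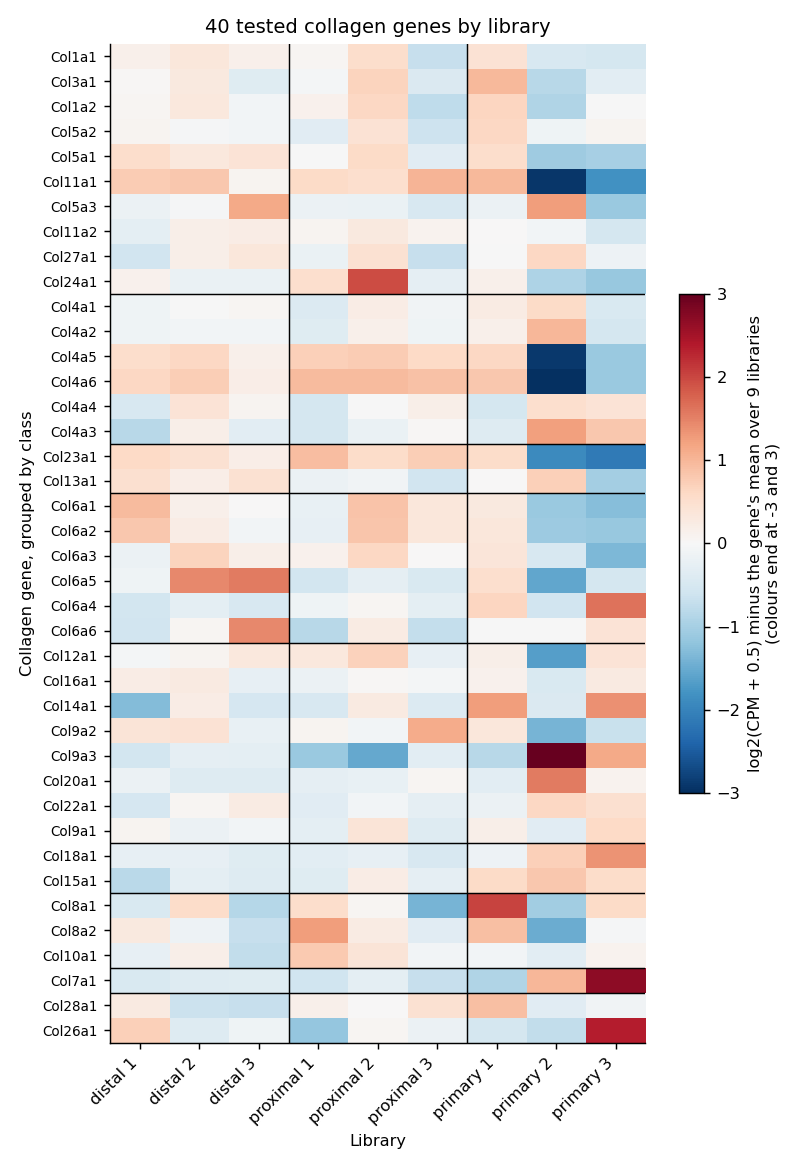
Log2 CPM of each tested collagen gene relative to its mean over the 9 libraries, with genes down the page by structural class and libraries across it, distal on the left, proximal in the middle and primary on the right; colours clip at -3 and 3. The column of primary 1 resembles the metastases, and primary 2 and primary 3 carry the low cells of Col23a1, Col4a5, Col4a6 and Col11a1.

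The FACIT collagens sit on the surface of fibrils and link them to other matrix. Col12a1, with the highest mean CPM of these, had 86.0, 95.3 and 111 CPM in distal, 112, 146 and 75.2 CPM in proximal and 101, 28.2 and 119 CPM in primary libraries. Col16a1 had 78.1, 81.5 and 56.8 CPM in distal, 59.7, 69.5 and 65.2 CPM in proximal and 74.3, 48.7 and 81.4 CPM in primary libraries. Per kilobase of merged exons Col16a1 was the higher, at 10.1 CPM against 6.38 CPM for Col12a1. Both overlapped between sites, with log2 fold changes of 0.33 (SE 0.42, edgeR adjusted p = 0.599) for Col12a1 and 0.0048 (SE 0.19, 0.988) for Col16a1. The following FACIT genes were named after their values were seen. Col9a3, a cartilage collagen chain, had 1.33, 1.74 and 1.70 CPM in distal, 0.731, 0.434 and 1.64 CPM in proximal and 1.02, 36.0 and 5.40 CPM in primary libraries. Its fold change of -3.53 on the log2 scale (SE 0.89, edgeR adjusted p = 0.0697) rested on primary 2, and was -1.39 (0.288) without it. Tcfl5, which shares exon bases with Col9a3 on the other strand, was at no more than 0.533 CPM in any library. Col9a2, a partner chain, had 8.80 to 14.0 CPM in distal, 9.70 to 23.0 CPM in proximal and 13.2, 3.63 and 6.32 CPM in primary libraries, so primary 2 was the highest library for Col9a3 and the lowest for Col9a2. Col14a1, a fibril-associated collagen of soft tissue, had 10.4 to 30.5 CPM in distal, 18.8 to 31.9 CPM in proximal and 63.1, 19.3 and 68.4 CPM in primary libraries; the log2 fold change was -1.23 (SE 0.45, edgeR adjusted p = 0.157). Col20a1 had 1.36 to 1.65 CPM in distal, 1.51 to 2.03 CPM in proximal and 1.45, 6.64 and 2.11 CPM in primary libraries.

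The short-chain collagens form hexagonal networks, of endothelial and corneal matrix for type VIII and of hypertrophic cartilage for type X. Col8a1 had 17.3, 35.1 and 12.9 CPM in distal, 34.8, 24.6 and 8.81 CPM in proximal and 98.3, 11.3 and 35.6 CPM in primary libraries. Col8a2 had 32.2, 23.6 and 15.9 CPM in distal, 62.8, 31.3 and 20.6 CPM in proximal and 49.2, 8.94 and 25.6 CPM in primary libraries. Neither separated the sites, with log2 fold changes of -1.12 (SE 0.66, edgeR adjusted p = 0.292) for Col8a1 and 0.12 (SE 0.54, 0.894) for Col8a2; the Col8a1 value was -0.06 without primary 1. Col10a1 had 1.20 to 2.74 CPM in distal, 2.2 to 4.39 CPM in proximal and 1.80 to 2.58 CPM in primary libraries; the log2 fold change was 0.20 (SE 0.35, edgeR adjusted p = 0.704). Nt5dc1, which overlaps Col10a1 on the other strand, had 16.5 to 24 CPM, and because the strand setting of the counting is not given, reads of the pair may be mixed. Col26a1 reached 6.42 CPM in primary 3 and 0.104 to 1.73 CPM elsewhere; its fold change was -1.67 on the log2 scale (SE 0.99, edgeR adjusted p = 0.297), and turned to 1.0 without primary 3. Col28a1, a minor collagen of peripheral nerve, had 0.967 to 2.38 CPM in distal, 1.89 to 2.79 CPM in proximal and 1.37 to 3.97 CPM in primary libraries; its fold change was -0.37 on the log2 scale (SE 0.45, edgeR adjusted p = 0.583).

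Setting primary 1 aside changed the picture for collagens as it did for other genes. Without it, 16 of 42 tested collagen genes were called for both sites against primary tumours, beside 34.8% of all genes. By site the counts were 15 in distal against primary, beside 27.4%, and 14 in proximal against primary, beside 28.7%. Each of these counts includes Col2a1, which passed the count filter only through primary 2 and primary 3, so its call carries no weight. The 9 called higher, beside 16.2% of all genes, were Col11a1, Col4a6, Col23a1, Col4a5, Col6a1, Col6a2, Col9a2, Col5a1 and Col6a3. The 7 called lower, beside 18.6% of all genes, were Col9a3, Col7a1, Col4a3, Col20a1, Col18a1 and Col15a1, beside the Col2a1 just named. Without primary 2 the call was Col6a4 alone, beside 1.33% of all genes, and without primary 3 no collagen gene was called, beside 0.469%. In all 9 libraries, 10 collagen genes had primary 1 within the range of the metastases and both other primary tumours below it, beside 19.9% of all genes, and 4 had both others above it, beside 13.3%. Ctnnb1 had 4213, 4457 and 3553 CPM in distal, 4398, 3626 and 4961 CPM in proximal and 4399, 937 and 1771 CPM in primary libraries. For Ctnnb1, as for Col23a1 and Col6a1, primary 1 lay within the range of the metastases and the other primary libraries lay below it. The part of library composition in these collagen differences was not tested. Gene-level counts do not show whether exon 3 of Ctnnb1 was lost.

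No collagen gene was called between distal and proximal metastases. Of 40 genes, 3 lay higher in every distal than in every proximal library, Col13a1, Col5a3 and Col6a5, beside 4.03% of all genes, and 2 lay lower, Col4a6 and Col6a4, beside 3.6%. Col6a5, a type VI chain of skin and lung and named after its values were seen, had 1.15, 4.43 and 4.80 CPM in distal and 0.731, 0.995 and 0.808 CPM in proximal libraries. Its log2 fold change of distal against proximal was 2.03 (SE 0.88, edgeR adjusted p = 1.0), with the highest levels in distal 2 and distal 3. Skeletal muscle markers summed to 5.13, 790 and 1071 CPM in distal libraries, and to 1.6 to 2.7 CPM in proximal and 2.8 to 12.6 CPM in primary libraries. Their part in the Col6a5 levels of distal 2 and distal 3 was not tested. Adipocyte markers summed to 32.9, 38.3 and 389 CPM in distal, 133, 496 and 208 CPM in proximal and 366, 57.2 and 110 CPM in primary libraries, so proximal libraries labelled as epididymal fat did not stand apart in this sum. Gene by gene, 6 of 7 tested adipocyte markers had a positive log2 fold change in proximal against primary, with a median of 0.86. In distal against proximal 0 of 7 were positive, with a median of -0.81, and neither comparison called any of them.

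Genes that make, mature, bind and break down collagen were followed in lists for both sites against primary tumours, a comparison that called 3.71% of all genes. In collagen synthesis, 1 of 21 tested genes was called: P3h3, a prolyl 3-hydroxylase, was lower, with 12.2, 14.6 and 12.6 CPM in distal, 10.4, 15.9 and 11.04 CPM in proximal and 18.6, 24.7 and 29.6 CPM in primary libraries. Its log2 fold change was -0.93 (SE 0.21, edgeR adjusted p = 0.0498), and all primary libraries lay above all metastases, beside 5.99% of all genes. Of 13 tested genes for processing and crosslinking, 0 were called; Loxl2, a lysyl oxidase that crosslinks collagen, was 1.35 higher on the log2 scale (SE 0.36, edgeR adjusted p = 0.078). Of 11 tested receptors, 1 was called: Adgrg1, an adhesion receptor that binds type III collagen, was lower. It had 33.6, 40.9 and 34.9 CPM in distal, 29.0, 26.6 and 56.2 CPM in proximal and 43.7, 287 and 183 CPM in primary libraries; its fold change was -2.21 on the log2 scale (SE 0.49, edgeR adjusted p = 0.0498). Primary 1 overlapped the metastases for Adgrg1, and primary 2 and primary 3 stood far above. The P3h3 and Adgrg1 calls were lost without any library except primary 1, with edgeR adjusted p between 0.0719 and 0.198 for P3h3 and between 0.103 and 0.175 for Adgrg1. Both calls were also lost with library totals, with limma-voom and with a filter of 1 CPM in 3 libraries, and the P3h3 call without a filter. The P3h3 call was lost in 12 and the Adgrg1 call in 11 of the alternative fits. Ddr1, a collagen receptor kinase of epithelial cells, had 103, 98.1 and 101 CPM in distal, 101, 100.7 and 99.9 CPM in proximal and 103, 448 and 271.5 CPM in primary libraries. Its log2 fold change was -1.45 (SE 0.36, edgeR adjusted p = 0.0648). The degradation list had 0 of 9 called and the matrix partners 0 of 20. The 2 most abundant genes of each list were not called. Their log2 fold changes were -0.39 (P4hb) and 0.53 (Sparc) for synthesis, and 0.52 (Bmp1) for processing beside Loxl2. They were 0.084 (Itgb1) for receptors beside Ddr1, -0.044 (Ctsb) and -0.081 (Mmp14) for degradation, and 0.29 (Bgn) and 0.69 (Fn1) for matrix partners. Median log2 fold changes were -0.075 for synthesis, -0.19 for processing, -0.75 for receptors, -0.37 for degradation and 0.25 for matrix partners, against -0.04 over all tested genes. No gene of these lists was called in a comparison of single sites.

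For both sites against primary tumours, where 3.71% of all genes were called and 3.68% called lower, marker lists of other cell types held few called genes. Apart from 3 of 8 epithelial markers, the keratins Krt5, Krt14 and Krt19, the lower calls were 3 seminal vesicle genes (Svs4, Svs5 and Svs6), Epyc among 5 tested cartilage markers and Upk1b among 7 mesothelial markers. Epyc and Svs6 passed the count filter only through the primary libraries, with at most 0.128 CPM for Epyc and 0.0522 CPM for Svs6 in any metastasis, so their calls carry no weight. Each of these 8 calls was lost in 7 to 10 of the alternative fits. The calls were 0 of 8 for pericytes, 0 of 8 for smooth muscle, 0 of 10 for endothelium, 0 of 6 for bone, 0 of 7 for adipocytes, 0 of 6 for skeletal muscle and 0 of 7 for macrophages. Endothelial markers, which bear on Col15a1, Col18a1 and the Col4a1 pair, summed to 149 to 235 CPM in distal, 151 to 211 CPM in proximal and 214 to 252 CPM in primary libraries. Pericyte markers summed to 112 to 162 CPM in distal, 113 to 147 CPM in proximal and 163 to 187 CPM in primary libraries, so every primary library lay above every metastasis, as for Col15a1. The margin was narrow, with 162.1 CPM in the highest metastasis and 163.2 CPM in the lowest primary library. Macrophage markers summed to 179 to 293 CPM in distal, 148 to 270 CPM in proximal and 321 to 641 CPM in primary libraries, the same separation. The epithelial sum showed it too, with 2777 CPM in the highest metastasis and 2806 CPM in the lowest primary library. The part of vessel, macrophage or epithelial content in the Col15a1 difference was not tested. Cartilage markers summed to at most 17.0 CPM in any library.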

How the data were processed

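The authors deposited raw counts per gene for each of the 9 libraries, made with TopHat2 2.1.0, Bowtie2 2.2.6.0 and HTSeq 0.6.0 on GRCm38.p3, per the submitters' processing notes; the strand setting is not given in the sources used here. Total counts ran from 28334730 to 40408723. Gene IDs were named from GENCODE M21 (46488 named, 581 not), which also gave positions and exon lengths.

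The collagen genes, the gene lists and the comparisons were chosen with earlier results of these data known. Genes with too few counts were dropped by filterByExpr (minimum 10 per library, 15 in total), library sizes were scaled by TMM, and edgeR 4.0.16 in R 4.3.3 fitted groups to all 9 libraries with a robust quasi-likelihood model with 6 residual degrees of freedom. P-values were adjusted over all 18204 tested genes, and a gene was called at an adjusted p below 0.05. Standard errors are the log2 fold change divided by the root of F. The model was first run on simulated counts with genes changed at both metastatic sites. Those counts held no outlying primary library, no admixed tissue and no matched animals, so they do not show how the model behaves with these.

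Named genes were those called, the 2 most abundant tested genes of each class, all type IV chains, Col1a1, Col1a2, Col2a1, Col3a1, Col10a1 and Col11a1. In the lists of genes that act on collagen, called genes and the 2 most abundant were named. In the marker lists, called genes were named, with Gsn as the most abundant fibroblast marker. Genes listed under a pattern or a changed set of libraries, the genes said to be so, and the Col6a4 and Col20a1 values were named after their values were seen. No 2 libraries agreed within sampling noise. Alternatives were DESeq2 1.42.0, limma 3.58.1 (voom, with and without quality weights), other scaling, other filters and each library left out. Promoters came from RefSeq, GRCm38.p6. Part of the genotype label is not reported here.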

Additional observations from a re-analysis of the deposited data

How the results depend on the processing

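No paired analysis was possible because the labels do not say which samples came from the same mouse. Of 40 tested collagen genes, those called for both sites against primary tumours were 0 with library totals, 0 with limma-voom, 5 with DESeq2 and 8 with voom quality weights. Of all 18204 tested genes, these fits called 533, 76, 2590 and 3813. For distal against primary the collagen calls were 3 with DESeq2, beside 1444 of all genes, and 7 with quality weights, beside 3041. For proximal against primary they were 4 with DESeq2, beside 1486, and 7 with quality weights, beside 3525. Leaving out 1 library gave 0 to 16 collagen calls for both sites, 0 to 15 for distal and 0 to 14 for proximal, the highest values each without primary 1. The quality weights were 0.175, 0.0843 and 1.06 for primary 1 to 3, so in those fits the primary group rested mostly on primary 3. All genes called for both sites were 533 with library totals, 2590 with DESeq2, 76 with voom and 3813 with quality weights. For distal against primary they were 10 with library totals, 1444 with DESeq2, 1 with voom, 3041 with quality weights and 0 with only the groups compared. For proximal against primary they were 15 with DESeq2's size factors in edgeR, 1486 with DESeq2, 1 with voom, 3525 with quality weights, 26 without a filter, 23 with a filter of 1 CPM in 3 libraries, 22 without the robust setting and 0 with only the groups compared. For distal against proximal DESeq2 called 85. Leaving out 1 library gave 22 to 6618 for both sites, 0 to 5203 for distal, 0 to 5447 for proximal and 0 to 38 for distal against proximal. The median collagen log2 fold change for proximal against primary was 0.11 with quality weights. Log2 fold changes for both sites that turned in sign were, with quality weights, Col12a1 -0.050, Col16a1 -0.20, Col3a1 0.22, Col13a1 1.05, Col4a1 0.21 and Col4a2 0.20; with voom, Col3a1 0.10 and Col13a1 0.21; with library totals, Col13a1 0.15; without a filter, Col13a1 0.030; and for Col16a1, -0.0109 with DESeq2's size factors, -0.0110 with DESeq2 and -0.021 with the CPM filter. Leaving out 1 library turned Col12a1 (-0.084 to 0.69), Col16a1 (-0.19 to 0.16), Col3a1 (-0.39 to 0.64), Col28a1 (-0.64 to 0.27), Col26a1 (-2.19 to 1.0, the highest without primary 3), Col8a2 (-0.30 to 0.83), Col13a1 (-0.41 to 0.56), Col4a1 (-0.47 to 0.018), Col4a2 (-0.73 to 0.054), Col1a2 (-0.25 to 0.51) and, for distal against proximal, Col18a1 (-0.0075 to 0.11). The Col15a1 adjusted p was 0.0539 with library totals and 0.0820 with voom, and 0.0107 to 0.115 with 1 library left out. The cause was not tested. Genes under about 1 CPM rest on 28.3 to 40.4 counts per library at most, which limits Col4a3, Col6a5 and Col26a1.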
